A study of Mus musculus with 14 samples.

Results

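The IL-6, LIF and gp130 receptor family was followed here through 9 genes in mouse lung group 2 innate lymphoid cells (ILC2s), the innate source of type 2 cytokines. The genes were taken by name, as 4 ligands (Il6, Lif, Osm and Il31) and 5 receptor chains (Il6st, Il6ra, Lifr, Osmr and Il31ra), and all 9 had a row among the 53278 genes of each deposited table. In the stimulation experiment, ILC2s sorted from the lungs of B6 mice were left without IL-33 (Unstimulated, n = 4) or kept for 24 h in IL-33 at 20 ng/mL (IL-33 stimulated, n = 4). The methods and design text put the Unstimulated cells in culture for the same 24 h, whereas their labels give no time and the study elsewhere calls them ex vivo, so if they were not cultured, IL-33 and culture cannot be told apart. In the Blimp-1 experiment, Control IL7RaCre ILC2s (n = 3) were compared with Blimp-1 IL7RaCre ILC2s (Blimp-1-deficient, n = 3). Both of these groups carry the Il7r-driven Cre and both were activated for 72 h, IL-33 and IL-25 being added at 20 ng/mL apiece. The methods also name IL-2 in this 72 h culture, which the labels do not. In the deficient cells this Cre deletes floxed Prdm1, which encodes the transcriptional repressor Blimp-1. Because the Cre is driven from Il7r, the deletion also reaches other lymphocytes of the same animals. The mice were female and, in the Blimp-1 experiment, matched in age, and the methods put all animals at over 6 weeks.

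Cytokines of this family signal through paired receptor chains. IL-6 binds IL-6Rα (Il6ra) and then gp130, the shared signal-transducing chain encoded by Il6st, and LIF binds LIFR together with gp130. Oncostatin M (Osm) pairs gp130 with OSMR, whereas IL-31 uses IL-31RA with OSMR and no gp130. These receptors activate JAK kinases and STAT3, and SOCS3 is the best known feedback inhibitor at gp130. IL-33 is an epithelial alarmin that reaches ILC2s through ST2 and the NF-kB and AP-1 pathways, and it was asked here which family members differ with IL-33 and with loss of Blimp-1.

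Libraries held 10470125 to 32849428 counts in the stimulation experiment and 13570188 to 76448945 in the Blimp-1 experiment. Control replicate 2 stood apart, with 76.8% of its counts on 7 ribosomal RNA-type loci where the remaining 13 libraries had 0.258% to 4.12%, so only 3150795 of its counts fell on other genes. IL-33 stimulated replicate 3 was the shallowest library of its experiment, at 10470125 counts. It had 4.12% of them on those loci, against 0.258% to 0.572% in the other libraries of that experiment. Results are therefore given with and without Control replicate 2 and this library. Levels are given as CPM, which are counts relative to 1e+06 of the library's TMM-adjusted total, and levels of different genes are compared only as TPM, which divides by gene length. All 11 ILC2 marker genes examined had counts in each of the 4 groups. The summed CPM of 8 fibroblast or stromal markers was 327 to 669 in Unstimulated libraries, 154 to 216 in IL-33 stimulated replicates 1, 2 and 4 and 392 in replicate 3. It was 113 and 261 in Controls 1 and 3, 4235 in Control 2 and 303 to 590 in Blimp-1-deficient libraries. Prdm1 measured 75.2, 92.8 and 74.0 CPM in Controls and 14.6, 11.5 and 11.4 CPM in the deficient libraries, a log2 fold change of -2.68 (SE 0.15, adjusted p = 0.00441, edgeR). In these bulk samples, fewer cells expressing a gene and less RNA per cell cannot be told apart.

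The upstream sequences of Lif and Il6, both called higher with IL-33, are shown with that of Il6st, the member called lower over all libraries. Each is the 250 bases before the RefSeq start site, written 5′ to 3′ along the gene, and capitals mark the letters of an NF-kB motif (GGGA and CC with any 4 bases between them) or of the AP-1 motif TGANTCA, searched on both strands.

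Lif, GRCm38, chr11:4257318-4257567, plus strand: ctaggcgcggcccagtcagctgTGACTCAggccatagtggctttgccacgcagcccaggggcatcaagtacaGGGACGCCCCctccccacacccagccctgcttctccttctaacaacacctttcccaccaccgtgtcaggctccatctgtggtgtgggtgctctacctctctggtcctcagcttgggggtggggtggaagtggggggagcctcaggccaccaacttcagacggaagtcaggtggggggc

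Il6, GRCm38, chr5:30012864-30013113, plus strand: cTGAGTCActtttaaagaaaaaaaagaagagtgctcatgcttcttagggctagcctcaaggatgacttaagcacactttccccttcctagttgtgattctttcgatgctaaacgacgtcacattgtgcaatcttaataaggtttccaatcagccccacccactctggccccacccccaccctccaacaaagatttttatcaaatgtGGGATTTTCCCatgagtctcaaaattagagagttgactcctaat

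Il6st, GRCm38, chr13:112463820-112464069, plus strand: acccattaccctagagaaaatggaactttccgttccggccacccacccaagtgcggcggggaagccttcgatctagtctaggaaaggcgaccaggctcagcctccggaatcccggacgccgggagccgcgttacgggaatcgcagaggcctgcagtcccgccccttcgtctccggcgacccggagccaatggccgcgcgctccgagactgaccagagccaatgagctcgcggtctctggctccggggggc

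In Lif, an AP-1 match lay at -228 to -222 and an NF-kB match at -178 to -169, counted in bases from the start. In Il6, NF-kB matches on both strands overlapped, at -44 to -35 and -43 to -34, and an AP-1 match lay at -249 to -243. The Il6st window held no match to either. Windows of these 250 bases reaching 50 bases past the start were held for 8 of the 9 members, Osm being the exception. The NF-kB letters were found in 5 of the 8 (Il6, Lif, Il6ra, Lifr and Osmr) and in 20.7% of all 32851 promoter windows of that length, and the AP-1 letters in 3 of the 8 (Il6, Lif and Osmr) and 7.81% of windows. The window of Il31, also called higher with IL-33, held neither set of letters. That of Osmr, called lower without IL-33 stimulated replicate 3, held both. The STAT letters TTCNNNGAA were present in the Il31ra window, against 8.3% of windows, and the Blimp-1 letters AGNGAAAG were in none of the 8, against 8.63% of windows. These matches describe letters only, and the windows differ in base composition.

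Several members are neighbours in the genome (GRCm38). Lif (chr11:4257557-4272514) and Osm (chr11:4236420-4241026) lie on the same strand with 16.5 kb and no annotated gene between them. Il6st (chr13:112464070-112510086) and Il31ra (chr13:112519898-112594360) are 9.8 kb apart, and Osmr (chr15:6813577-6874969) and Lifr (chr15:7090614-7197489) are 215.6 kb apart with no protein-coding gene between them. Il6 (chr5:30013114-30019981) and Il31 (chr5:123480157-123489489) are distant on 1 chromosome, and Il6ra is at chr3:89864059-89913196. The strand used for counting is not given in the sources used here, so reads of Il31, which shares 3.97% of its exon bases with Lrrc43, and of Il6ra, which shares 2.8% with an antisense gene, could be divided between overlapping genes.

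With IL-33, all 4 ligands were higher and the shared receptor chain was lower. Lif, Il6, Osm and Il31 passed the test as higher and Il6st as lower, out of 8 members tested. Of all genes tested, 16.2% were called higher and 16.1% lower (15466 genes, edgeR's quasi-likelihood test with Benjamini-Hochberg adjustment). Without IL-33 stimulated replicate 3, the same 4 ligands were higher and Il6st, Il6ra and Osmr lower, where 27.5% and 29.7% of 15733 genes were called. Il6ra, Lifr and Osmr did not pass over all libraries, and Il31ra had too few counts to be tested.

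Lif, which encodes a cytokine first known for its action on leukaemia and stem cells, measured 26.1, 19.9, 28.9 and 21.2 CPM in Unstimulated replicates 1 to 4 and 395, 427, 315 and 354 CPM in IL-33 stimulated replicates 1 to 4. Every stimulated library was above every unstimulated one, and the lowest stimulated value was replicate 3. The rise was 15.5-fold, a log2 fold change of 3.96 (SE 0.16, adjusted p = 5e-06, edgeR), and 4.03 without replicate 3. Il6, the founding ligand of the family, measured 4.62, 1.00, 2.80 and 3.53 CPM without IL-33 and 76.4, 89.8, 63.4 and 80.7 CPM with it. Again no libraries overlapped, and the log2 fold change of 4.70 (SE 0.43, adjusted p = 0.000155, edgeR) is a 26.0-fold rise.

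Osm was the ligand with the highest TPM before stimulation, at a median of 95.2 TPM. It measured 63.5, 61.5, 59.8 and 62.9 CPM without IL-33 and 160, 165, 99.0 and 166 CPM with it. The groups did not overlap, and replicate 3 lay far below the other 3 stimulated libraries. The log2 fold change was 1.25 (SE 0.16, adjusted p = 0.000701, edgeR), or 1.40 (SE 0.05) without replicate 3. Il31, a cytokine known for itch, went from near absence to a low level. Its counts were 0, 0, 1 and 0 without IL-33 and 100, 74, 25 and 98 with it, which is 2.90 ± 0.55 CPM (SD, n = 4) in the stimulated group. Summed over libraries and scaled for depth, the ratio of 297 counts to 1 was 354 (95% counting interval 63.1 to 14047), and the call held at adjusted p = 0.000171 (edgeR). That interval covers counting error only.

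**Figure D1:**
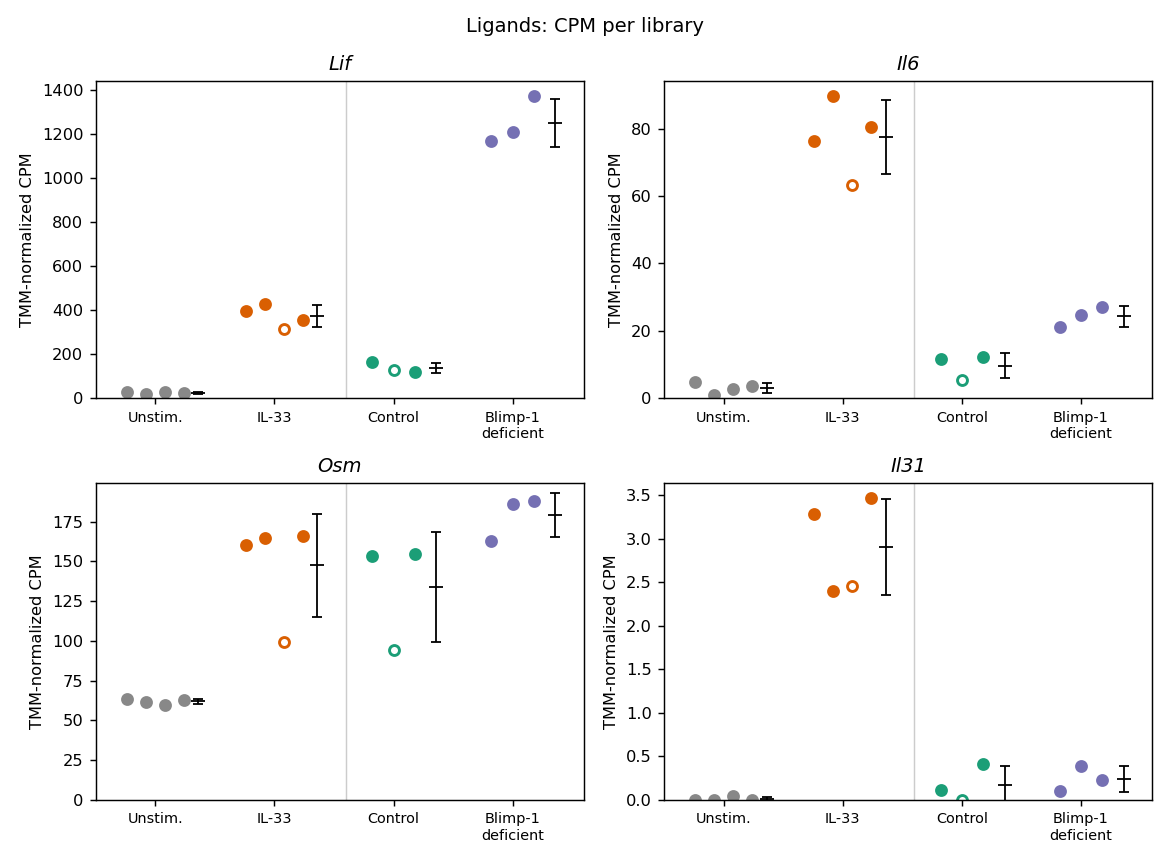
CPM of Lif, Il6, Osm and Il31 in each library of the 4 groups, on linear axes from 0. Points are libraries, open points are IL-33 stimulated replicate 3 and Control replicate 2, and bars give the mean ± SD. Lif stands at 1165 CPM or above in all 3 Blimp-1-deficient libraries and at 164 CPM or below in the Controls, whereas Il31 is highest with IL-33 in the stimulation experiment.

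Among the receptors, Il6st (gp130) measured 124, 101, 116 and 116 CPM without IL-33 and 57.7, 51.2, 37.3 and 56.2 CPM with it. All stimulated libraries were below all unstimulated ones, and the fall of 1.17 on the log2 scale (SE 0.14, adjusted p = 0.000519, edgeR) left 0.443 of the unstimulated level. Without replicate 3 it fell by 1.06 (adjusted p = 2.01e-06, edgeR). The stromal marker sum was lower in stimulated replicates 1, 2 and 4 than in all Unstimulated libraries, but in replicate 3, which had the lowest Il6st, it was 392 CPM and above Unstimulated replicate 2. Collagen genes made up most of that sum, and Lum, another of its genes, was higher with IL-33, at means of 1.37 and 6.004 CPM. Other marker sums were lower with IL-33 without overlap, that of the 11 ILC2 markers among them, at 8019 to 8718 CPM without IL-33 and 5632 to 7788 CPM with it. Its genes did not move together, Il1rl1 having means of 2441 and 1333 CPM but Il2ra of 1687 and 2516 CPM and Areg of 51.0 and 524 CPM. The sum of 10 T cell markers was 193 to 220 CPM without IL-33 and 52.7 to 75.9 CPM with it. Most of it without IL-33 was Trbc2, with means of 117 and 32.2 CPM, while Cd3e had means of 6.83 and 3.76 CPM. The sum of 8 epithelial markers was 54.7 to 85.6 against 3.96 to 6.604 CPM. Most of it without IL-33 was Epcam, with means of 59.6 and 2.61 CPM, while Cdh1 had means of 0.744 and 1.40 CPM. That of 9 mast cell or basophil markers was 305 to 371 against 130 to 185 CPM, with Mcpt1 and Ms4a2 at 0 in both groups. Most of that sum was Kit, with means of 317 and 162 CPM, and Cpa3 had means of 10.4 and 0.026 CPM. The part of any of these in the fall of Il6st was not tested.

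Osmr, the oncostatin M and IL-31 receptor chain, measured 13.3, 8.07, 13.98 and 9.45 CPM without IL-33 and 7.20, 6.77, 9.85 and 6.94 CPM with it. Only stimulated replicate 3 reached into the unstimulated range. The log2 fold change was -0.55 (SE 0.23, adjusted p = 0.109, edgeR) and became -0.68 (adjusted p = 0.0127) without that library. Il6ra, the IL-6-binding chain, was low, at 1.49, 1.95, 2.46 and 1.39 CPM against 0.69, 0.97, 1.97 and 0.74 CPM. Again replicate 3 alone overlapped the unstimulated group, and the log2 fold change of -0.77 (adjusted p = 0.172, edgeR) became -1.17 (adjusted p = 0.00576) without it. The value in replicate 3 rests on 20 counts, where 3 counts correspond to 0.296 CPM.

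Lifr, the LIF-binding chain, was as low, at 1.46, 1.80, 2.85 and 1.61 CPM against 1.28, 1.20, 4.33 and 1.38 CPM. The value of 4.33 CPM, in stimulated replicate 3, was above all other libraries of the experiment, and the log2 fold change moved from 0.06 (adjusted p = 0.932, edgeR) to -0.57 (adjusted p = 0.0983) without it. Replicate 3 was also the stimulated library with the highest stromal marker sum, and the part of that sum in its Lifr, Osmr and Il6ra values was not tested. Il31ra had 0, 3, 1 and 0 counts without IL-33 and 5, 13, 6 and 14 counts with it. The groups did not overlap, and the depth-scaled ratio of 38 to 4 summed counts was 11.3 (95% counting interval 4.08 to 43.7), with no test between groups. Of the 8 members tested, 4 lay wholly higher with IL-33 and 1 wholly lower, against 17.0% and 20.9% of all genes tested.

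**Figure D2:**
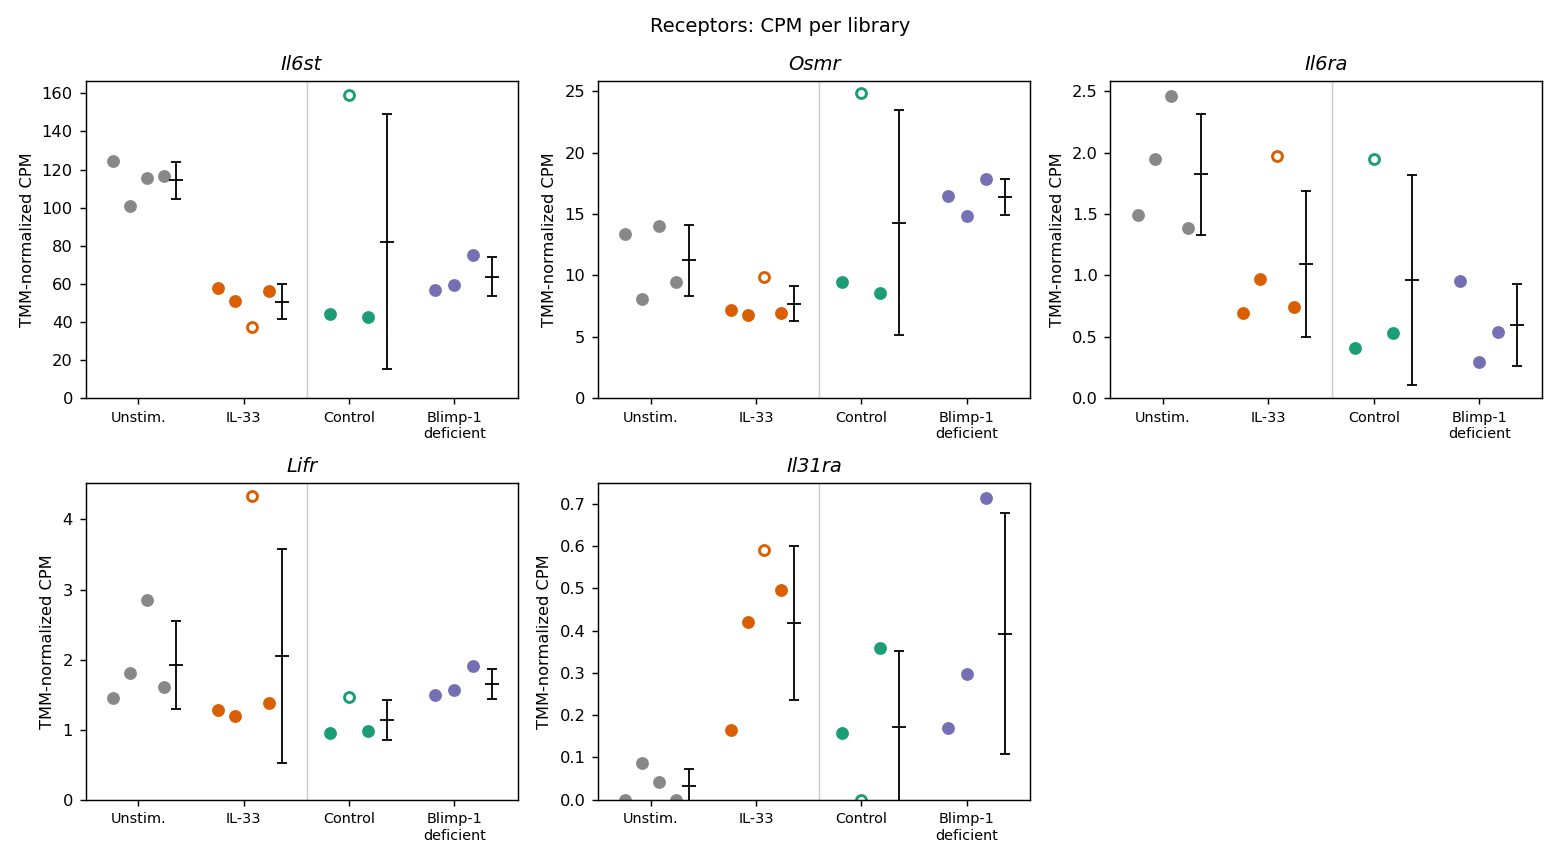
CPM of the 5 receptor chains in each library of the 4 groups, on linear axes from 0 with the mean ± SD. Open points are IL-33 stimulated replicate 3 and Control replicate 2. Il6st separates Unstimulated from IL-33 stimulated libraries, and Control replicate 2 lies far above the other Controls for Il6st, Osmr and Il6ra.

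Loss of Blimp-1 was accompanied by a rise of 1 member that passed the test over all 6 libraries, Lif. Across all 17335 genes tested, 0.450% were called higher and 0.306% lower (edgeR's quasi-likelihood test with Benjamini-Hochberg adjustment). All 9 members were tested, and none was called lower, with Lif and Il6 below an unadjusted p of 0.05 in the same fit. Without Control replicate 2, 5 members were called higher (Lif, Il6, Osmr, Il6st and Lifr) and none lower, against 8.25% and 5.72% of 17968 genes.

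Lif measured 164, 129 and 120 CPM in Control replicates 1 to 3 and 1165, 1208 and 1371 CPM in replicates 1 to 3 without Blimp-1. The lowest deficient library was far above the highest Control. The log2 fold change was 3.18 (SE 0.18, adjusted p = 0.00441, edgeR), a 9.07-fold difference, and 3.14 without Control replicate 2. Leaving out any 1 deficient library kept the log2 fold change between 3.11 and 3.24, but the adjusted p rose to between 0.05005 and 0.0656 (edgeR). With limma on log2(TPM + 1) it was 4.84 (SE 1.31) and was not called (adjusted p = 0.528), on TPM as deposited, in which ribosomal RNA-type loci take 93.9% of Control 2 and its Lif is at 3.20 TPM. In Control 2, whose stromal marker sum was 4235 CPM, Lif was between the other Controls on CPM and below both on rescaled TPM, at 52.2 against 145 and 109. The ILC2 marker sum of Control 2 was also below both on rescaled TPM, at 2290 against 6211 and 5970. On CPM that sum was 5690 against 6767 and 6276.

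Il6 measured 11.5, 5.36 and 12.1 CPM in Controls and 21.02, 24.5 and 27.2 CPM in deficient libraries. The groups did not overlap, and Control 2 was the lowest, on 22 counts. The log2 fold change of 1.26 (SE 0.28) did not pass over all libraries (adjusted p = 0.127, edgeR) and passed without Control 2, at 1.05 (SE 0.11, adjusted p = 0.00245). Osm measured 153, 94.0 and 155 CPM in Controls and 163, 186 and 188 CPM in deficient libraries, again with Control 2 lowest and without overlap. Its log2 fold change was 0.41 (adjusted p = 0.508, edgeR), and 0.23 (SE 0.07, adjusted p = 0.0802) without Control 2, so Osm did not pass either way. Il31 stayed at a few counts, with 9, 0 and 39 in Controls and 8, 30 and 22 in deficient libraries. Its groups overlapped, and the depth-scaled ratio was 0.884 (95% counting interval 0.595 to 1.32). In Control 2, 3 counts correspond to 0.731 CPM, so its count of 0 could not show a level like that of the other Controls.

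**Figure D3:**
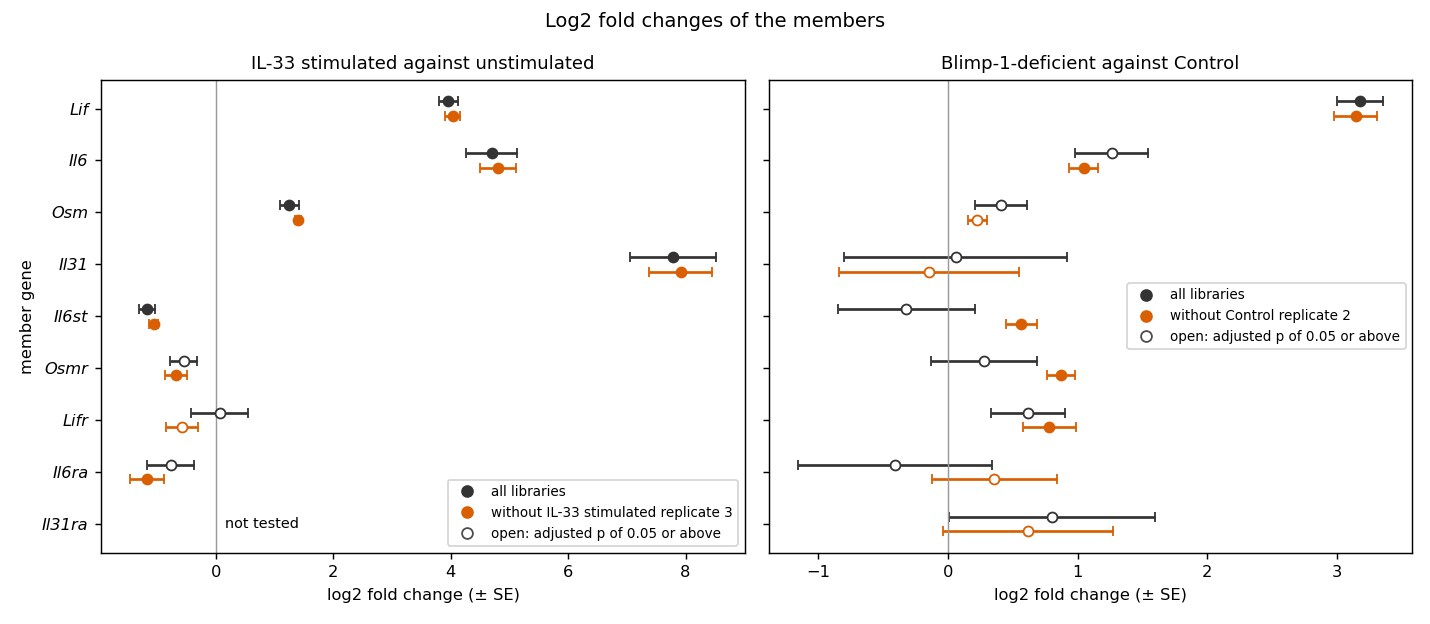
Log2 fold change ± SE of the members in each comparison from edgeR, over all libraries and without IL-33 stimulated replicate 3 or Control replicate 2. Filled points have an adjusted p below 0.05. Lif is filled in both comparisons with either set of libraries, and Il6st in the Blimp-1 comparison moves from -0.32 to 0.57.

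The receptor values in the Blimp-1 comparison turned on Control replicate 2. Il6st measured 44.3, 159 and 42.4 CPM in Controls and 57.0, 59.2 and 75.3 CPM in deficient libraries, so that on CPM Control 2 was the highest of all 6 and the other Controls were the lowest. On rescaled TPM, Control 2 was at 25.3 and below deficient replicate 3 at 27.3. The log2 fold change was -0.32 (SE 0.53, adjusted p = 0.875, edgeR) over all libraries and 0.57 (SE 0.12, adjusted p = 0.0228) without Control 2. Osmr measured 9.48, 24.8 and 8.56 CPM against 16.4, 14.8 and 17.8 CPM, the same arrangement. On rescaled TPM all Controls (2.79 to 3.62) were below all deficient libraries (4.95 to 5.93). The ILC2 marker sum of Control 2 was low on rescaled TPM too (2290 against 6211 and 5970), so its values on that scale may read low. The Osmr counts gave log2 fold changes of 0.28 (adjusted p = 0.854, edgeR) over all libraries and 0.87 (SE 0.11, adjusted p = 0.00408) without Control 2. Lifr measured 0.95, 1.46 and 0.98 CPM against 1.498, 1.56 and 1.90 CPM. The groups did not overlap, although the Control 2 value rests on 6 counts. Its log2 fold change was 0.62 (adjusted p = 0.481, edgeR), or 0.78 (adjusted p = 0.0486) without Control 2.

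The stromal marker sum was likewise highest in Control 2, as Il6st and Osmr were but Lifr was not, and its lowest deficient value of 303 CPM was above the 113 and 261 CPM of Controls 1 and 3. Between Controls 1 and 3 it ran opposite to Il6st and Osmr. The sum of 7 endothelial markers was 183, 67.7 and 133 CPM in Controls and 289, 267 and 240 CPM in deficient libraries, and that of 9 mast cell or basophil markers 151, 137 and 147 CPM against 184, 163 and 211 CPM, both wholly higher without Blimp-1. The mast cell or basophil sum was nearly all Kit, a gene also high in Unstimulated ILC2s, with means of 144 and 186 CPM, and Mcpt8 (0.567 and 0.193 CPM) and Cpa3 (0.277 and 0.127 CPM) were near 0. The ILC2 marker sum was wholly lower, at 5690 to 6767 CPM in Controls and 5082 to 5331 CPM in deficient libraries, with means of 2083 and 1337 CPM for Il2ra but 262 and 529 CPM for Icos, neither called over all libraries. The part of these markers in the receptor differences was not tested. Il6ra, at 0.41, 1.95 and 0.53 CPM against 0.95, 0.30 and 0.54 CPM, overlapped and did not pass with or without Control 2 (adjusted p = 0.892 and 0.658, edgeR). Il31ra had 13, 0 and 34 counts against 14, 23 and 69, and also overlapped and did not pass (adjusted p = 0.762 and 0.561). In all, 4 of 9 members (Il6, Lif, Osm and Lifr) lay wholly higher on CPM in deficient libraries and none wholly lower, against 11.8% and 10.8% of all genes tested.

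**Figure D4:**
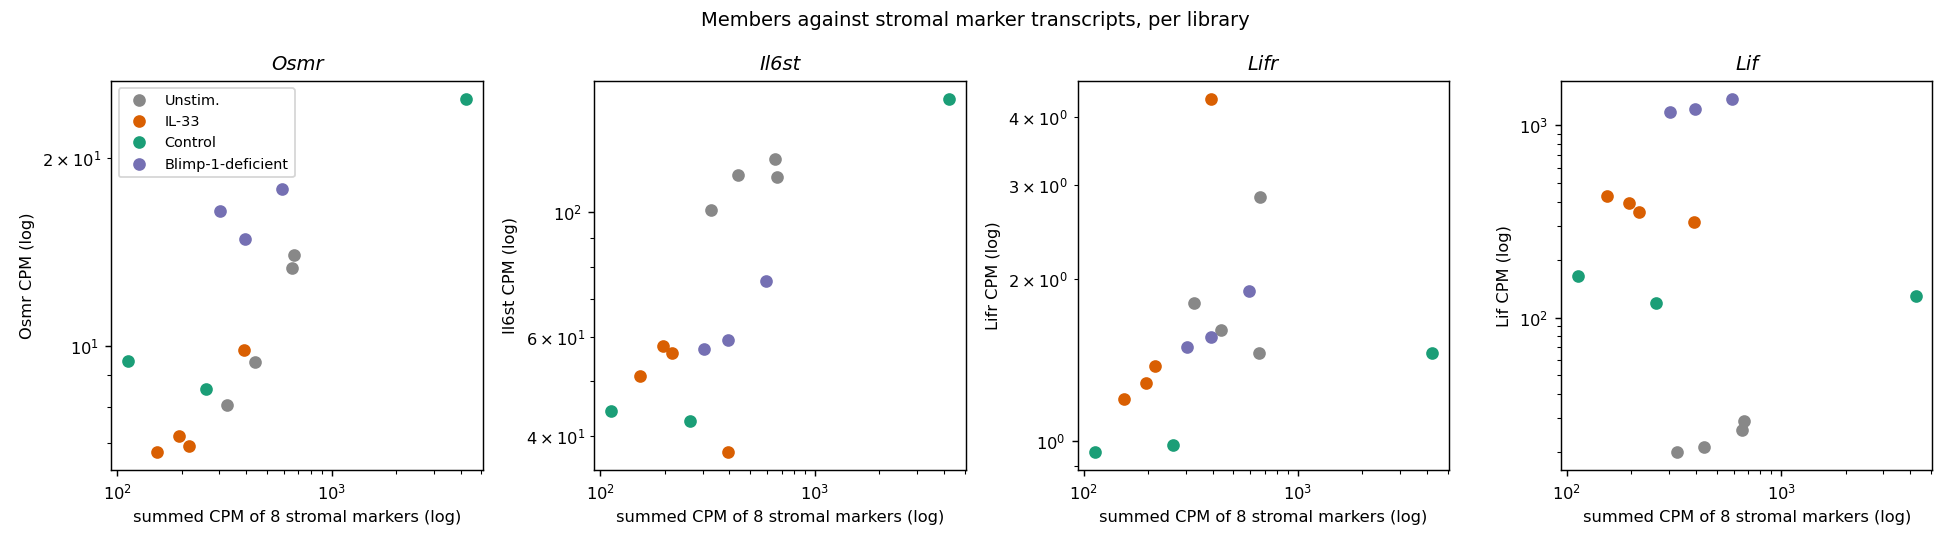
CPM of Osmr, Il6st, Lifr and Lif against the summed CPM of 8 fibroblast or stromal markers, 1 point per library, with both axes logarithmic. Control 2, at 4235 CPM on the horizontal axis, is the highest point for Osmr and Il6st. All deficient libraries lie at 1165 CPM of Lif or above, at marker sums of 303 to 590 CPM.

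Levels of the members were ordered on TPM, rescaled after the 7 ribosomal RNA-type loci were left out. In Unstimulated ILC2s Osm was first, at a median of 95.2 TPM (93.3 to 99.1), followed by Il6st at 37.2 and Lif at 18.8 TPM, and these 3 did not overlap each other. Il6 (4.65 TPM) and Osmr (3.23 TPM) overlapped, and Il6ra and Lifr were at most 1.01 TPM in all 4 libraries. With IL-33, Lif (median 242, 204 to 280 TPM) and Osm (201, 123 to 207 TPM) overlapped at the top, followed by Il6 at 90.6 TPM, Il6st at 13.4 TPM and Il31 at 6.74 TPM. Without IL-33 stimulated replicate 3, Lif (219 to 280 TPM) lay above Osm (197 to 207 TPM) with no overlap. In Controls, Osm (259, 73.1 to 269 TPM) was first and overlapped Lif (109, 52.2 to 145 TPM). Leaving out Control 2 removed this overlap, with Osm at 259 to 269 TPM and Lif at 109 to 145 TPM. Without Blimp-1, Lif was first at 1170 TPM (1121 to 1267), which put it at place 85 among 24548 genes with a median above 0, followed by Osm at 330 and Il6 at 40.8 TPM without overlap.

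Across the 4 groups, Lif was highest in Blimp-1-deficient ILC2s, then IL-33 stimulated, Control and Unstimulated, and no neighbouring groups in this order overlapped. Il6 had another order, with IL-33 stimulated first, then Blimp-1-deficient, Control and Unstimulated, of which the last 2 overlapped. The experiments were normalized separately and differ in cytokines and time, so these orders across them carry no test.

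The balance of ligands within a library shifted with them. The TPM of Lif relative to Osm was 0.169 to 0.252 in Unstimulated, 1.11 to 1.66 in IL-33 stimulated, 0.404 to 0.714 in Control and 3.40 to 3.81 in Blimp-1-deficient libraries. Neither comparison overlapped, and IL-33 stimulated replicate 3 and Control 2 each had the highest ratio of their group. Lif relative to Il6 was 2.45 to 2.88 in IL-33 stimulated and 3.16 to 11.1 in Unstimulated libraries, but 27.5 to 30.9 in Blimp-1-deficient against 5.51 to 13.4 in Control libraries. The ratio of Lif to Il6 was thus lower with IL-33 and higher without Blimp-1.

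**Figure D5:**
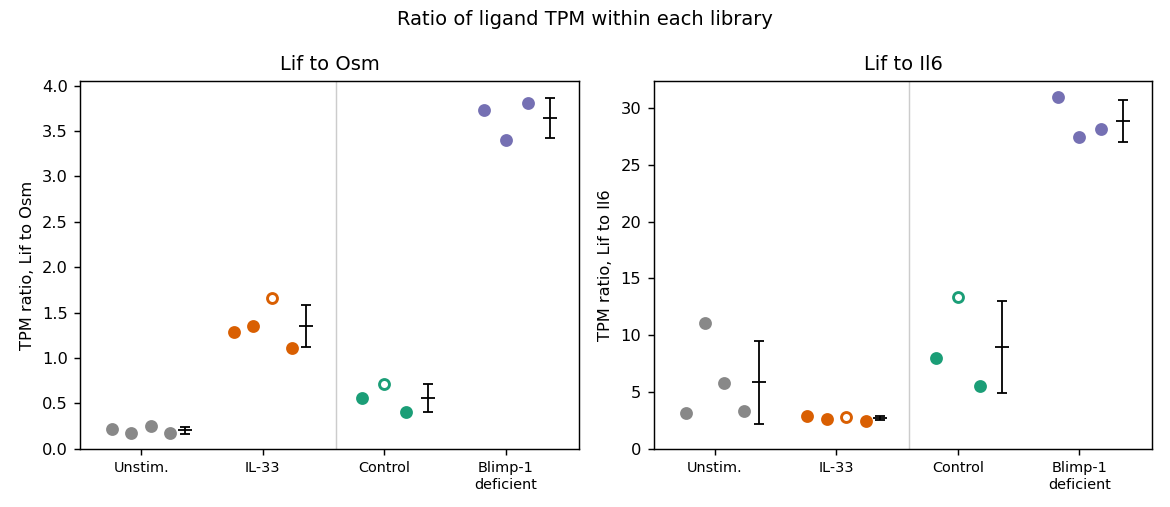
Ratio of Lif to Osm TPM and of Lif to Il6 TPM in each library, on linear axes from 0, with the mean ± SD. Open points are IL-33 stimulated replicate 3 and Control replicate 2. Blimp-1-deficient libraries are highest in both panels, at 3.40 to 3.81 and 27.5 to 30.9.

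The other genes of the pathway were followed as 52 genes in 4 lists. With IL-33, 9 of the 47 tested were higher and 6 lower, beside 16.2% and 16.1% of all genes, or 16 and 14 of 47 without replicate 3, beside 27.5% and 29.7%. Among 12 other ligands and receptors of the gp130 family, 7 were tested and 1 was called, Ebi3, the shared subunit of IL-27 and IL-35, which rose from 13.0 to 91.1 CPM (log2 fold change 2.81, SE 0.22, adjusted p = 6.74e-05, edgeR). Of 13 JAK-STAT and adaptor genes, Jak2, a kinase bound to gp130 and other cytokine receptors, rose from 187 ± 3.84 to 541 ± 68.4 CPM (SD, n = 4; log2 fold change 1.54), and Gab2, a docking adaptor, fell by 0.77 on the log2 scale. Of 11 inhibitors and sheddases none was higher and 4 were lower over all libraries, and 2 were higher and 5 lower without replicate 3. The 4 were Socs2, a feedback inhibitor of cytokine receptors (-0.83), Pias3, an inhibitor of STAT3 (-0.80), Sh2b3, an adaptor that restrains JAK signalling (-0.76), and Adam10, a protease that can shed IL-6Rα (-0.38). The median log2 fold change of that list was -0.34, beside 0.06 over all genes tested.

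Of 16 genes known as STAT3 targets, 7 were higher and 1 lower with IL-33, beside 16.2% and 16.1% of all genes, and without replicate 3 the counts were 8 and 4, beside 27.5% and 29.7%. The list medians were 0.41 and 0.49, beside 0.06 and -0.05 over all genes tested. The largest of the 7 were the survival kinase gene Pim2 (2.54), the angiogenic factor gene Vegfa (2.16), the AP-1 member Junb (1.95), Myc (1.65) and the AP-1 family member Batf (1.27), while Mcl1, an anti-apoptotic gene, fell by 0.33 on the log2 scale. These genes also answer to other pathways. In the Blimp-1 comparison 48 of the 52 were tested, and Pim2 alone was called, at 77.0 ± 15.4 CPM in Controls and 211 ± 15.5 CPM in deficient libraries (SD, n = 3; log2 fold change 1.45, SE 0.17, adjusted p = 0.0294, edgeR). Without Control 2, 13 were called higher and 6 lower, beside 8.25% and 5.72% of all genes. Of the 11 inhibitors and sheddases, 2 were then higher, Socs1 (log2 fold change 0.58) and Sh2b3 (0.69). The 3 lower were Socs3, Socs2 (-0.40) and Ptpn2 (-0.27), and none of these genes passed over all libraries. They are named after their values were seen, outside the rule for the other pathway genes. Genes of the other lists called only without Control 2 are not named. Socs3, which did not pass over all libraries, was at 167 ± 20.7 CPM in Controls and 89.3 ± 12.9 CPM in deficient libraries, with a log2 fold change of -0.91 (adjusted p = 0.0561, edgeR), and of -0.84 (adjusted p = 0.00839) without Control 2.

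Genes were ranked by how closely their log2 CPM followed that of each member across the 14 libraries, by Pearson's r among 9850 genes. The mean of each gene within each experiment was subtracted first. The ranks describe libraries that share experiment and group. For Lif the nearest was Tnf (r = 0.988), followed by Serpinb9 (0.982) and Tnfsf8 (0.975). For Il6 the nearest was Fam46a (0.990) and for Osm it was Pfkl (0.992). For Osmr the nearest were Axl (0.968), Cyr61 (0.967) and Phldb2 (0.962). For Il6st it was Runx1 (0.964), which moved to place 171 when Control 2 and IL-33 stimulated replicate 3 were left out. Without those libraries Fam46a and Axl stayed at place 1 for Il6 and Osmr, Tnf moved to place 2 for Lif, and Pfkl moved to place 15 for Osm.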

How the data were processed

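The 14 RNA-seq libraries of sorted lung ILC2s belong to 2 experiments. The authors made libraries with SMART-seq v4 and Nextera XT, used cutadapt to trim the 75-base paired reads, HISAT2 to place them on GRCm38 and Subread to count them per gene, and the submitters' processing notes also list Bowtie2 and DESeq2. They deposited raw counts per gene and, separately, TPM, which follow from those counts and the deposited gene lengths. The annotation release is not given in the sources used here.

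Counts were tested per experiment with edgeR 4.0.16 (R 4.3.3; TMM, filterByExpr, two-sided quasi-likelihood test), adjusted by Benjamini-Hochberg over all genes tested, with a threshold of 0.05. CPM carry no prior count, and SE and SD refer to libraries of separate sorted samples. No term was used for replicate number. TPM were rescaled to 1e+06 without 7 ribosomal RNA-type loci (CT010467.1, Gm23935, Gm26917, Lars2, Mir6236, Gm15564 and mt-Rnr2) for levels and ratios. Limits of 3 counts and 95% intervals cover counting error only.

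Members and gene lists were chosen with earlier results of these data known. Pathway genes are named where they passed with and without the library in doubt at a mean of at least 5 CPM, up to 5 per list and direction. The inhibitors named in the Blimp-1 comparison are outside this rule. Genes resembling a member were ranked on log2(CPM + 0.5), centred on the mean of each gene within each experiment. Promoter windows come from RefSeq (GRCm38.p6). Alternatives were other scalings and filters, DESeq2 1.42.0, limma 3.58.1 on log2(TPM + 1) or log2(TPM + 0.1) of the deposited, not rescaled, values with a mean of at least 1 TPM, a replicate block, each library left out, and voom with sample weights, the last chosen after seeing the data. The procedure was tested on simulated data. The ATAC-seq was not analysed here.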

Additional observations from a re-analysis of the deposited data

Results flagged for a closer look

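Single libraries lay far from the rest of their group for 4 members, by Dixon's test at 95%, which flags about 1 in 20 groups by chance. In the IL-33 stimulated group all 3 cases were replicate 3, the shallowest library. Its Osm level was 99.0 CPM against 160 to 166 CPM in the other 3 libraries, its Lifr level was 4.33 CPM against 1.20 to 1.38 CPM, and its Osmr level was 9.85 CPM against 6.77 to 7.20 CPM. In the Unstimulated group, replicate 3 had 0.0425 CPM of Il31 against 0 in the others, which is a single count. The groups of 3 in the Blimp-1 experiment were not tested in this way.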

How the results depend on the processing

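With IL-33, the 4 ligands and Il6st kept direction and call under all alternatives run, except that a mean count of at least 50 left Il31 untested. The count of members lower, 1, became 2 with limma at either pseudocount, 3 without IL-33 stimulated replicate 3 and 3 with voom. Of the other pathway genes, 9 were higher, 8 to 16 with each library left out and 18 with voom, while 6 were lower, and 13 by library size alone, 14 with the ribosomal loci removed before TMM, 10 with DESeq2, 17 and 16 with limma, 14 without IL-33 stimulated replicate 3 and 14 with voom. Gab1, not called over all libraries (log2 fold change 0.19), was called lower without IL-33 stimulated replicate 3 and with voom (-1.13), and ranged from -1.37 to 0.65 with each library left out. Over all genes, 2508 were higher and 2484 lower, against 1805 and 3691 by library size alone, 2072 and 3550 with the ribosomal loci removed and 990 and 4555 with limma on log2(TPM + 1), where the median over all genes moved, on the log2 scale, from 0.06 to -0.10, -0.06 and -0.25. All-gene calls also rose with DESeq2, to 3318 higher and 3204 lower of 17027 genes. With voom they were 4556 and 4877 of 15466, and without IL-33 stimulated replicate 3 they were 4328 and 4666 of 15733.

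Without Blimp-1, the count of members higher, 1, became 2 with DESeq2, 0 with limma at either pseudocount, 0 with a replicate block and 4 with voom, and ranged from 0 to 5 with each library left out. Other pathway genes higher, 1, became 0 by library size alone, 7 with DESeq2, 0 with limma, 0 with the block and 11 with voom, with a range of 0 to 13. Those lower, 0, became 1 without a filter, 1 at a mean count of at least 50, 4 with DESeq2 and 5 with voom, with a range of 0 to 6. Lif kept its direction throughout, and was 4.84 (SE 1.31, adjusted p = 0.528) and 4.96 (SE 1.61, adjusted p = 0.473) with limma on log2(TPM + 1) and log2(TPM + 0.1). Il6st ranged from -0.64 to 0.57 with each library left out and turned to the latter without Control replicate 2. It was also above 0, though not called, with all libraries by library size alone (0.67), with limma (1.47 and 1.67) and with voom (0.55). The limma and library-size scalings keep the ribosomal RNA-type loci, and in the deposited TPM that limma used, Il6st in Control 2 is at 1.56 TPM, against 25.3 TPM once they are left out. Over all genes, 131 were called by edgeR, 1108 with DESeq2, 2221 with voom, 256 at the higher filter, 0 or 1 with limma, and 0 to 2510 with a library left out. Higher and lower calls were 78 and 53 of 17335 genes by edgeR and 557 and 551 of 17205 with DESeq2. With voom they were 1295 and 926 of 17335, without a filter 56 and 38 of 30196. The count of 0 with a library left out came without Blimp-1-deficient replicate 1 or 3, with 1172 and 1173 genes at an unadjusted p under 0.05 (edgeR). The median over all genes was -0.02, and 0.45 by library size alone and 1.28 with limma on log2(TPM + 1). The causes were not tested.

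The design text puts separate mice in the Unstimulated and IL-33 stimulated groups, and the Blimp-1 groups differ in genotype. Replicate numbers were therefore not taken to pair the samples. The labels number each library as a mouse, whereas the study's figure captions describe sorting samples from pooled animals. Same-numbered libraries deviated together in some pairs and apart in others (r from -0.12 to 0.31 and from -0.16 to 0.14). With the block, Lif was at an adjusted p of 0.0691 (log2 fold change 3.19, edgeR) and 0 genes passed in the Blimp-1 comparison, with 1380 at an unadjusted p under 0.05. With IL-33 the block called 3700 genes against 4992. Depth limits Il31, Il31ra, Il6ra and Lifr most, which had few counts in the shallow libraries.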
